A study of Mus musculus with 18 samples.

Results

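Myoblast fusion was followed through 10 genes: the fusogen Mymk, the cadherins Cdh15 and Cdh2, the immunoglobulin-type adhesion molecules Kirrel3, Jam2 and Jam3, and the membrane proteins Cav3, Myof, Dysf and Ehd2. They were taken by name from the 19938 genes to which the array annotation gives a row of their own. Each of the 10 genes had 1 such row (a transcript cluster, the summary of all probes of 1 transcription unit), no filter on low signal was applied, and all 10 were measured on every array. C2C12 is an immortal mouse myoblast line, widely used as a culture model of muscle formation. All cells studied here, the controls included, were stably depleted of their own TAF3, a subunit of the basal transcription factor TFIID, and carried re-expressed murine TAF3.

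The genotypes were WT-TAF3 shX (wild-type TAF3 and no depletion of PIP4K2B), WT-TAF3 sh-PIP4K2B and KK-TAF3 sh-PIP4K2B. PIP4K2B is a nuclear lipid kinase that uses phosphatidylinositol 5-phosphate as substrate, and KK-TAF3 is a mutant that no longer binds phosphoinositides but still binds trimethylated lysine of histone H3. Each genotype was arrayed after differentiation in 2% horse serum, for 2 days in the array labels and 3 days in the series' own design text, or after 10 µM etoposide, a topoisomerase poison that breaks DNA, for 7 hours in cells that were not differentiated. There were 3 arrays in each of the 6 groups, 18 in all, described as biological triplicates. The lines were stable, virally transduced and drug-selected, and nothing states that replicates came from separately made lines, so the p-values measure the spread between these samples. The labels of the cells without PIP4K2B depletion name no control shRNA, and the name shX follows the study's figures. No untreated, undifferentiated group was arrayed.

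Myotubes form when myoblasts recognise each other, adhere through cadherins and immunoglobulin-type receptors, and bring their membranes close together over an actin focus. The muscle-specific membrane protein Mymk (myomaker), together with the small peptide Mymx, then drives the merging of the membranes. Caveolae and ferlins, which handle membrane curvature, trafficking and repair, take part before and after the merger.

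Values are log2 signals, so that 1 unit is a doubling, and they are compared between groups only within a gene. A gene was called at a Benjamini-Hochberg adjusted p under 0.05 over 19938 genes in limma with a change above 1.4-fold. Each adjusted p given is from that fit unless another setting or a left-out array is named. Array medians over all 35556 transcript clusters lay between 7.25 and 7.46, and those over the 19938 genes between 7.89 and 8.02. Replicates of a group correlated at 0.990 to 0.997 over the 35556 clusters. Pip4k2b, the targeted gene, averaged 10.69 ± 0.01 (SD, n = 3) in differentiated WT-TAF3 shX cells, 9.55 ± 0.09 in WT-TAF3 sh-PIP4K2B and 9.86 ± 0.04 in KK-TAF3 sh-PIP4K2B cells. After etoposide it averaged 10.65 ± 0.15, 9.76 ± 0.15 and 9.94 ± 0.22 in the same order. In both treatments the mean of KK-TAF3 sh-PIP4K2B cells was above that of WT-TAF3 sh-PIP4K2B cells. The part of these unequal depletions in the comparisons below was not tested. Taf3, whose signal cannot separate the endogenous from the re-expressed transcript, averaged 8.60 to 8.82 in the 6 groups and was called in no comparison. Of the myoblast markers, Myf5 (11.05 to 11.91) and Des (12.72 to 13.36) were above the array's median of the 19938 genes on every array, Myod1 was below it on 9 of 18 arrays and Pax7 on 18 of 18. Of 22 markers of other cell types, 15 lay below the same median on all arrays, and so did Mef2c and Myh3 of the 6 differentiating muscle markers, with Myog below it on 16 of 18. Of the 6 fibroblast and smooth muscle markers, Acta2 (13.98 to 14.16), Col1a1 (10.79 to 12.73), Tagln (11.05 to 11.55) and Pdgfra (8.19 to 8.98) were above it on every array. Cnn1 was below it on 5 of 18 and Myh11 on 18 of 18. The nerve marker Tubb3 (8.63 to 9.62) was also above it on every array, and the macrophage marker Cd68 was below it on 17 of 18.

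Mymk had the largest change between genotypes among the 10 genes in the comparisons made. On the 3 differentiated WT-TAF3 shX arrays it read 9.18, 9.16 and 9.43. On the WT-TAF3 sh-PIP4K2B arrays it read 9.62, 9.63 and 9.75, and on the KK-TAF3 sh-PIP4K2B arrays 8.14, 8.10 and 8.06. The 3 groups did not overlap: every KK-TAF3 array was the lowest and every WT-TAF3 array with PIP4K2B depleted the highest. Within sh-PIP4K2B cells, KK-TAF3 had 2.96-fold less Mymk than WT-TAF3, a log2 change of -1.57 (SE 0.11, 95% confidence interval -1.79 to -1.34, adjusted p = 6.46e-08) and rank 4 of all genes by p. Against WT-TAF3 shX the KK-TAF3 sh-PIP4K2B cells were 2.23-fold lower (-1.16, SE 0.11, adjusted p = 2.48e-06). These comparisons share the KK-TAF3 arrays. A culture is a mixture of cells at different stages, and in such bulk RNA fewer cells expressing Mymk cannot be told apart from less Mymk RNA per cell.

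PIP4K2B depletion in WT-TAF3 cells moved Mymk by 0.41 (SE 0.11, 1.33-fold, adjusted p = 0.0324), above the control on every array but short of the 1.4-fold limit. With 1 array left out the change ran from 0.36 to 0.50, and it was not called in 5 of 6 such fits. It passed only without WT-TAF3 shX replicate 3, the highest of the control arrays (0.50, adjusted p = 0.0232). Of the 6 differentiating muscle markers, Myog, Myh3, Ckm and Acta1 had group means in the same order as Mymk. Tnnt3 was higher in KK-TAF3 sh-PIP4K2B (10.39) than in WT-TAF3 shX cells (10.12), and Mef2c was highest in WT-TAF3 shX cells (6.38). The summed linear signal of the 6, to which the bright Acta1 and Tnnt3 add most, was 3203 to 3355 in WT-TAF3 shX, 4570 to 5055 in WT-TAF3 sh-PIP4K2B and 2611 to 2899 in KK-TAF3 sh-PIP4K2B cells. With KK-TAF3, 4 of the 6 were called lower against WT-TAF3 in sh-PIP4K2B cells (Myog, Myh3, Acta1 and Tnnt3) and none higher. Of all genes 0.216% were called lower there and 0.301% higher. Ckm, at 8.35 with WT-TAF3 and 7.94 with KK-TAF3, was short of the fold limit. The part of these markers in the Mymk result was not tested. None of the 22 markers of other cell types was called in these comparisons, and 0 had an unadjusted p under 0.05 and a change above 1.4-fold. Together these markers summed to 28015 to 28489 in WT-TAF3 shX, 29775 to 30411 in WT-TAF3 sh-PIP4K2B and 27700 to 28022 in KK-TAF3 sh-PIP4K2B cells. Most of each sum came from the fibroblast and smooth muscle markers (25982.5 to 26494.4, 27751.7 to 28398.4 and 25670.3 to 26147.6 in that order).

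**Figure D1:**
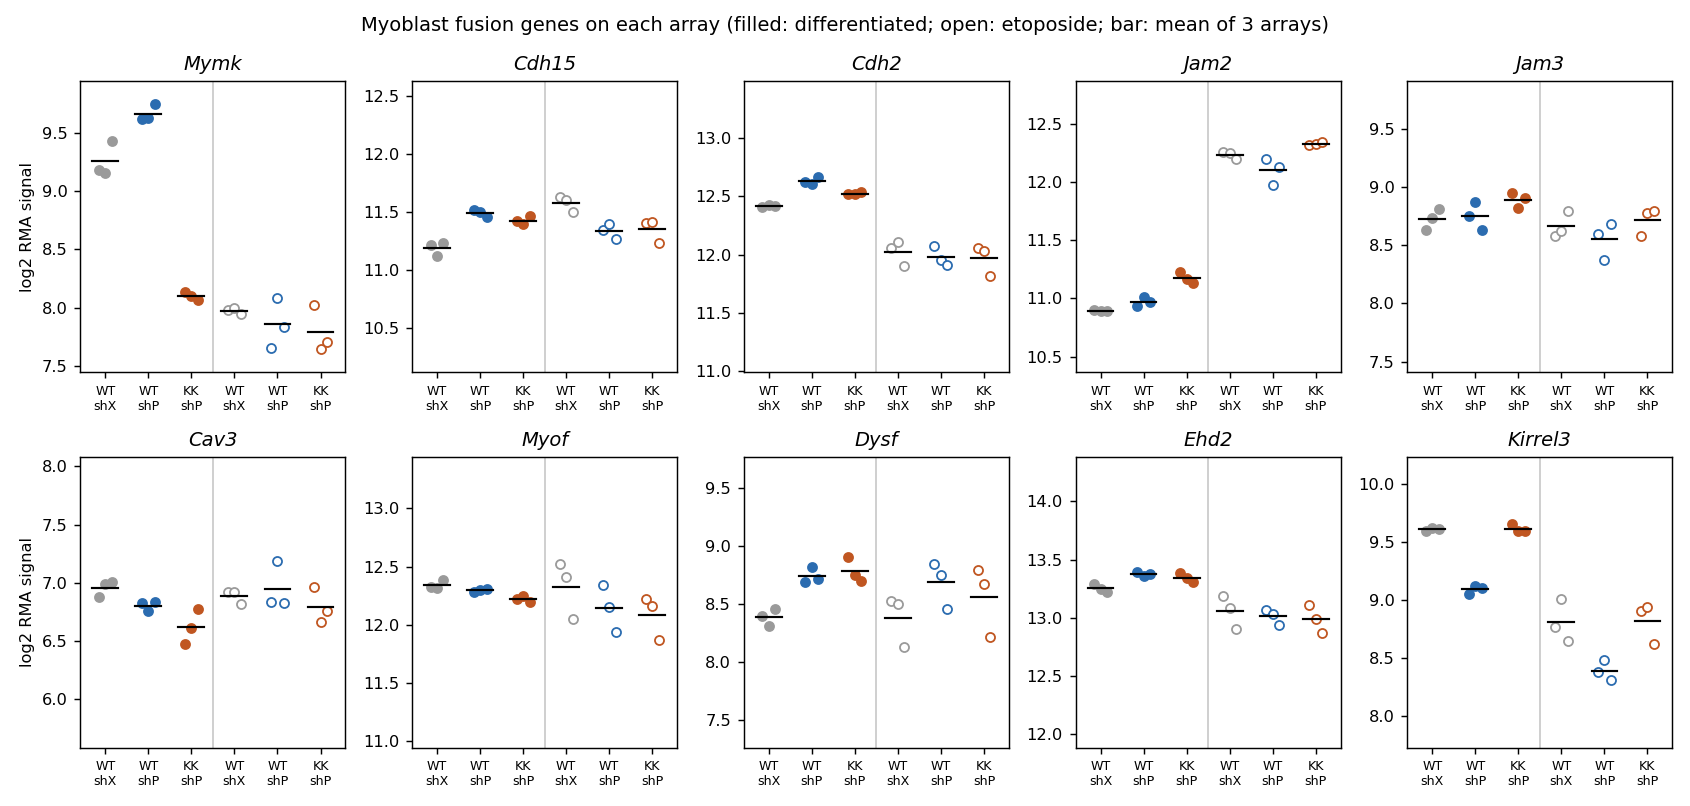
Log2 signal of each of the 10 fusion genes (1 panel a gene, vertical axis in log2 units with its own range) on each of the 18 arrays, by genotype and treatment. Points are arrays and lines are means of 3. In the Mymk panel the differentiated KK-TAF3 arrays sit at 8.06 to 8.14, below all other differentiated arrays.

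After etoposide the Mymk signal was low in every genotype, and 5 of the 18 arrays had Mymk below their median of the 19938 genes. It read 7.98, 8.0 and 7.95 in WT-TAF3 shX, 7.65, 8.08 and 7.84 in WT-TAF3 sh-PIP4K2B, and 8.02, 7.65 and 7.70 in KK-TAF3 sh-PIP4K2B cells. The genotypes overlapped: KK-TAF3 differed from WT-TAF3 by -0.07 (95% confidence interval -0.29 to 0.16, adjusted p = 0.775) and PIP4K2B depletion changed it by -0.12 (-0.34 to 0.11, adjusted p = 0.578). The KK-TAF3 effect itself differed between treatments by 1.50 (SE 0.15, 95% confidence interval 1.18 to 1.81, adjusted p = 8.64e-05), at rank 2 of all genes. Mymk was the only 1 of the 10 genes called there, where 0.135% of all genes were called in the same direction and 0.015% in the other. The effect of PIP4K2B depletion on Mymk differed by -0.53 (SE 0.15, adjusted p = 0.0457). That call was lost in 9 of 12 fits that left out 1 array, in which the difference ranged from -0.64 to -0.42, and kept only without WT-TAF3 sh-PIP4K2B differentiated replicate 1 or etoposide replicate 2, or WT-TAF3 shX differentiated replicate 3. Adjusted p was 0.0896 with every transcript cluster tested, 0.0577 with quantile normalization within each treatment, 0.169 with the array median as a covariate and 0.0573 with a replicate block.

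In order of its level Mymk ran from differentiated WT-TAF3 sh-PIP4K2B (9.67 ± 0.07, SD, n = 3) through WT-TAF3 shX (9.26 ± 0.15) to KK-TAF3 sh-PIP4K2B (8.10 ± 0.04), and then to the etoposide groups of WT-TAF3 shX (7.97 ± 0.03), WT-TAF3 sh-PIP4K2B (7.86 ± 0.22) and KK-TAF3 sh-PIP4K2B (7.79 ± 0.20). The etoposide groups overlapped among themselves, while each pair of neighbours above them was separate. Differentiated KK-TAF3 sh-PIP4K2B replicate 3 (8.06) still lay below WT-TAF3 sh-PIP4K2B etoposide replicate 2 (8.08), so those groups overlapped. Between treatments Mymk was 2.43-fold lower after etoposide in WT-TAF3 shX cells (-1.28, adjusted p = 4.78e-08) and 3.50-fold lower in WT-TAF3 sh-PIP4K2B cells (-1.81, adjusted p = 3.70e-10). In KK-TAF3 sh-PIP4K2B cells the difference was -0.31 (adjusted p = 0.0390), under the fold limit. Etoposide and the lack of differentiation cannot be told apart in these values. Of the 6 differentiating muscle markers 4, 4 and 1 were lower after etoposide in the same order of genotypes and 0 higher, with summed signals of 2145 to 2298, 2167 to 2417 and 1833 to 1995. Of the 22 markers of other cell types 2, 1 and 3 were higher and 1, 1 and 1 lower, with sums of 25299 to 26818, 25043 to 26348 and 24368 to 24969. The fibroblast and smooth muscle markers again made up most of these sums. The part of the muscle and other markers in the differences was not tested.

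In differentiated cells 1 of the 10 genes was called after PIP4K2B depletion, Kirrel3, and it was lower, where 0.376% of all genes were called lower. None was called higher, against 0.682% of all genes. With KK-TAF3 there were 2 calls, Mymk lower against 0.216% of all genes and Kirrel3 higher against 0.301%. For KK-TAF3 sh-PIP4K2B cells against WT-TAF3 shX there was 1 call, Mymk lower, against 0.436% of all genes called lower and 0.823% called higher. After PIP4K2B depletion 6 of the 10 genes were above the control on every array and 3 below it on every array, where 21.8% and 22.7% of all genes were. With KK-TAF3 2 genes were above and 3 below on every array, where 12.9% and 8.07% of all genes were, and in KK-TAF3 sh-PIP4K2B cells against WT-TAF3 shX cells 6 were above and 3 below, where 26.1% and 19.9% were. The median change of the 10 genes was 0.10 after PIP4K2B depletion, where that of all genes was -0.02, and -0.05 with KK-TAF3, where that of all genes was 0.02.

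Kirrel3 belongs to a family of immunoglobulin-superfamily receptors whose fly relatives let founder cells and fusion-competent myoblasts recognise each other. On the differentiated arrays it read 9.60, 9.62 and 9.61 in WT-TAF3 shX, 9.05, 9.12 and 9.11 in WT-TAF3 sh-PIP4K2B, and 9.65, 9.60 and 9.59 in KK-TAF3 sh-PIP4K2B cells. All 3 arrays of WT-TAF3 sh-PIP4K2B lay below those of the other groups, which overlapped each other. Kirrel3 fell by 0.52 with PIP4K2B depletion (SE 0.09, 1.43-fold, adjusted p = 0.00282). It was higher with KK-TAF3 than with WT-TAF3 in sh-PIP4K2B cells by 0.52 (SE 0.09, 1.43-fold, adjusted p = 0.00377). Both comparisons use the WT-TAF3 sh-PIP4K2B arrays. KK-TAF3 sh-PIP4K2B and WT-TAF3 shX cells differed by 0.00 (95% confidence interval -0.18 to 0.19, adjusted p = 0.977). With each array centred on its median the first change was -0.42 (adjusted p = 0.0201), which is short of the fold limit.

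After etoposide Kirrel3 was lower, and the genotype means stood in the same order. It read 8.77, 9.01 and 8.65 in WT-TAF3 shX, 8.38, 8.48 and 8.31 in WT-TAF3 sh-PIP4K2B, and 8.90, 8.94 and 8.63 in KK-TAF3 sh-PIP4K2B cells. The WT-TAF3 sh-PIP4K2B arrays were again below both other groups. Here PIP4K2B depletion gave -0.42 (SE 0.09, 1.34-fold, adjusted p = 0.0116) and KK-TAF3 gave 0.43 (SE 0.09, 1.35-fold, adjusted p = 0.0239), both short of the fold limit. With 1 array left out the first ran from -0.50 to -0.32 and the second from 0.37 to 0.53. Each was called in 1 of 6 such fits, the first without WT-TAF3 shX replicate 3, the second without KK-TAF3 sh-PIP4K2B replicate 3. Replicate 3 was the lowest Kirrel3 array in all 3 etoposide groups, so leaving it out of the higher group alone widens the difference. Neither effect was shown to differ between treatments (difference 0.10, 95% confidence interval -0.17 to 0.36, adjusted p = 0.611 for PIP4K2B depletion, and -0.09, -0.35 to 0.18, adjusted p = 0.883 for KK-TAF3).

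**Figure D2:**
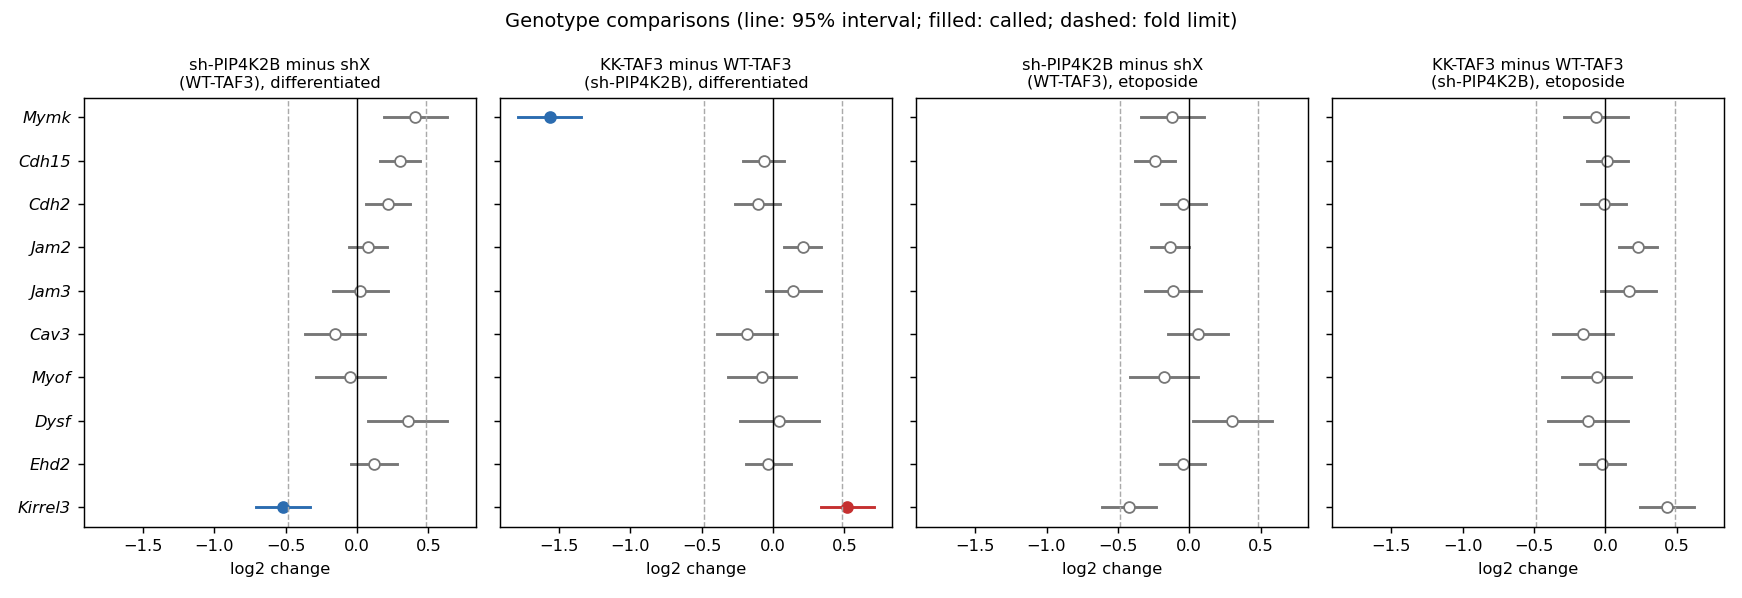
Log2 change of the 10 fusion genes with PIP4K2B depletion and with KK-TAF3, in differentiated and in etoposide-treated cells (horizontal axis, log2 units). Points are changes between means of 3 arrays with 95% confidence intervals. Mymk with KK-TAF3 at -1.57 lies apart from the other genes in differentiated cells, and Kirrel3 moves by -0.52 and 0.52.

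None of the 10 genes was called after etoposide for either genotype effect in limma, where 0.321% of all genes were called higher and 0.547% lower with PIP4K2B depletion, and 0.341% and 0.0652% with KK-TAF3. Taken without adjustment, p under 0.05 and 1.4-fold also gave 0 of the 10. For KK-TAF3 sh-PIP4K2B cells against WT-TAF3 shX after etoposide the counts were 0 by both measures, against 0.792% of all genes called higher and 0.361% lower. Fewer groups were separate than in differentiation: PIP4K2B depletion left 0 of the 10 genes above the control on every array and 2 below (Cdh15 and Kirrel3), where 6.93% and 8.02% of all genes were. KK-TAF3 left 2 above (Jam2 and Kirrel3) and 0 below, where 6.89% and 3.9% were, and the KK-TAF3 sh-PIP4K2B cells against WT-TAF3 shX cells had 1 above and 1 below, where 8.22% and 6.01% were.

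Several members passed the adjusted p without reaching 1.4-fold. Without the fold limit 3 of the 10 genes passed with PIP4K2B depletion in differentiated cells (Mymk, Cdh15 and Kirrel3), where 6.14% of all genes did, and 2 with KK-TAF3, where 0.978% did. For KK-TAF3 sh-PIP4K2B cells against WT-TAF3 shX cells in differentiation 4 passed to either side of 0 (Mymk, Cdh15, Jam2 and Cav3), where 8.66% did. After etoposide 1 passed with PIP4K2B depletion and 1 with KK-TAF3, Kirrel3 in both, where 3.15% and 0.898% did, and 0 between KK-TAF3 sh-PIP4K2B and WT-TAF3 shX cells, where 3.09% did. The difference of the effects between treatments passed for 2 genes with PIP4K2B depletion, where 6.67% did, and for 1 with KK-TAF3, where 0.15% did.

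Cdh15 (M-cadherin), a calcium-dependent adhesion molecule of satellite cells and myoblasts, was the gene whose spread lay mostly between genotypes. Of its variance over the 18 arrays, 80.1% was between genotypes within a treatment, 3.72% between treatments and 16.2% within groups. The differentiated arrays read 11.22, 11.12 and 11.23 in WT-TAF3 shX, 11.52, 11.50 and 11.46 in WT-TAF3 sh-PIP4K2B, and 11.42, 11.39 and 11.46 in KK-TAF3 sh-PIP4K2B cells. After etoposide they read 11.63, 11.60 and 11.50 in WT-TAF3 shX, 11.35, 11.40 and 11.27 in WT-TAF3 sh-PIP4K2B, and 11.41, 11.42 and 11.23 in KK-TAF3 sh-PIP4K2B cells. WT-TAF3 shX was thus the lowest group in differentiation and the highest after etoposide, and in neither treatment did it overlap the other genotypes.

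PIP4K2B depletion changed Cdh15 by 0.30 in differentiated cells (SE 0.07, adjusted p = 0.0159) and by -0.24 after etoposide (SE 0.07, adjusted p = 0.0634), and neither change reached 1.4-fold. The difference between the treatments did, at -0.54 (SE 0.10, 95% confidence interval -0.74 to -0.34, adjusted p = 0.00503). Cdh15 and Mymk were the 2 genes of the 10 called lower in that test, against 2.07% of all genes called lower and 1.95% called higher. Those shares rest on the scaling: 388 genes were higher and 413 lower, but 66 and 1290 with median centring and 39 and 57 with the array median as a covariate. The Cdh15 call held in all 12 fits without 1 array. It was lost with quantile normalization within each treatment (-0.46) and with the array median as a covariate (adjusted p = 0.0692). The array medians of differentiated WT-TAF3 sh-PIP4K2B cells all lay below those of WT-TAF3 shX cells. KK-TAF3 and WT-TAF3 cells differed in Cdh15 by -0.07 (95% confidence interval -0.21 to 0.08) in differentiation and by 0.01 (-0.13 to 0.16) after etoposide.

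The stretch of DNA just upstream of Cdh15 is shown because it is the one promoter among those matched with 3 copies of the E-box core CANNTG, the letters that bHLH factors in general recognise. It is given 5′ to 3′ from RefSeq, build GRCm38.p6, chr8:122848124-122848373, plus strand, with E-box cores in capitals. The 250 bases before the start of Myog, the gene whose signal most resembled that of Mymk, are shown beside it (chr1:134289754-134290003, plus strand).
Cdh15: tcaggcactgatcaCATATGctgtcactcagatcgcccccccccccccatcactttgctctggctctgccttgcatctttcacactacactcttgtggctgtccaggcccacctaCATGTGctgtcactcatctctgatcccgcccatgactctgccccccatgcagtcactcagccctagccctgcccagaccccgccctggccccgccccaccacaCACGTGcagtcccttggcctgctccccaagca
Myog: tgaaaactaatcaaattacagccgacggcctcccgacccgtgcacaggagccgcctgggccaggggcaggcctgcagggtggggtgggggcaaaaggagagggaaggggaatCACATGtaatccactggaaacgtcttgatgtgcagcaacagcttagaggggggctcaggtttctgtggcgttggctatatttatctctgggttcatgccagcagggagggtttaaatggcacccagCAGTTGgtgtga

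In Cdh15 the E-box cores began 236, 135 and 32 bases before the transcript start, and in Myog 138 and 12 bases before it. CANNTG reads alike on both strands, and 66.2% of 32851 promoter windows of this length held at least 1 copy, 12.2% at least 3. Promoter windows were matched for 5 of the 10 genes: Cav3 held 2 cores (31.8% of windows hold as many), Ehd2 held 1, and Myof and both windows of Dysf held 0. The form CAGCTG, which myogenic bHLH factors such as MYOD1 favour and which 13% of windows held, was found 0 times in Cdh15 and Myog and 1 time each in Cav3 and Ehd2, and CAGGTG in none of these. The matches are letters only, and no binding was measured here. Promoters of Mymk, Cdh2, Jam2, Jam3 and Kirrel3 were not analysed here.

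Cdh2 (N-cadherin), the second cadherin of myoblasts, separated the treatments. Differentiated arrays read 12.41, 12.42 and 12.41 in WT-TAF3 shX, 12.62, 12.60 and 12.67 in WT-TAF3 sh-PIP4K2B, and 12.52, 12.52 and 12.54 in KK-TAF3 sh-PIP4K2B cells. After etoposide they read 12.06, 12.11 and 11.90, then 12.08, 11.96 and 11.91, and 12.06, 12.03 and 11.81 in the same order of genotypes. Each differentiated group stood apart from the others and from all etoposide arrays, and the etoposide groups overlapped. Cdh2 was lower after etoposide in WT-TAF3 sh-PIP4K2B cells (-0.65, SE 0.07, 1.57-fold, adjusted p = 2.16e-06) and in KK-TAF3 sh-PIP4K2B cells (-0.56, SE 0.07, 1.47-fold, adjusted p = 1.66e-05). Without KK-TAF3 sh-PIP4K2B etoposide replicate 3 the latter was -0.48, short of the fold limit. In WT-TAF3 shX cells the difference was -0.39 (1.31-fold, adjusted p = 0.000586), under the limit. The genotype effects on Cdh2 were 0.22 (adjusted p = 0.0809) for PIP4K2B depletion and -0.11 (adjusted p = 0.920) for KK-TAF3 in differentiated cells.

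Jam2, a junctional adhesion molecule that pairs with Jam3 across cell contacts, was the only 1 of the 10 genes called higher after etoposide in all genotypes. Its differentiated arrays read 10.90, 10.89 and 10.89 in WT-TAF3 shX, 10.93, 11.01 and 10.97 in WT-TAF3 sh-PIP4K2B, and 11.23, 11.17 and 11.13 in KK-TAF3 sh-PIP4K2B cells. The etoposide arrays read 12.26, 12.25 and 12.20 in WT-TAF3 shX, 12.20, 11.98 and 12.13 in WT-TAF3 sh-PIP4K2B, and 12.32 to 12.35 in KK-TAF3 sh-PIP4K2B cells. No etoposide array came near a differentiated one, and 96.4% of the variance of Jam2 lay between treatments. The rise was 2.54-fold in WT-TAF3 shX (1.34, SE 0.06, adjusted p = 2.50e-11), 2.19-fold in WT-TAF3 sh-PIP4K2B (1.13, adjusted p = 1.91e-10) and 2.22-fold in KK-TAF3 sh-PIP4K2B cells (1.15, adjusted p = 1.72e-10).

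KK-TAF3 arrays had more Jam2 than WT-TAF3 arrays with PIP4K2B depleted in both treatments, on every array, but the differences were small: 0.21 (SE 0.06, adjusted p = 0.202) in differentiation and 0.23 (SE 0.06, adjusted p = 0.114) after etoposide. Against WT-TAF3 shX in differentiation the KK-TAF3 sh-PIP4K2B cells were higher by 0.28 (SE 0.06, 1.22-fold, adjusted p = 0.0122), under the fold limit. Its partner Jam3 was called in no comparison. Jam3 group means ran from 8.55 to 8.89, its changes between genotypes within a treatment from -0.11 to 0.17, and 46.5% of its variance lay within groups.

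**Figure D3:**
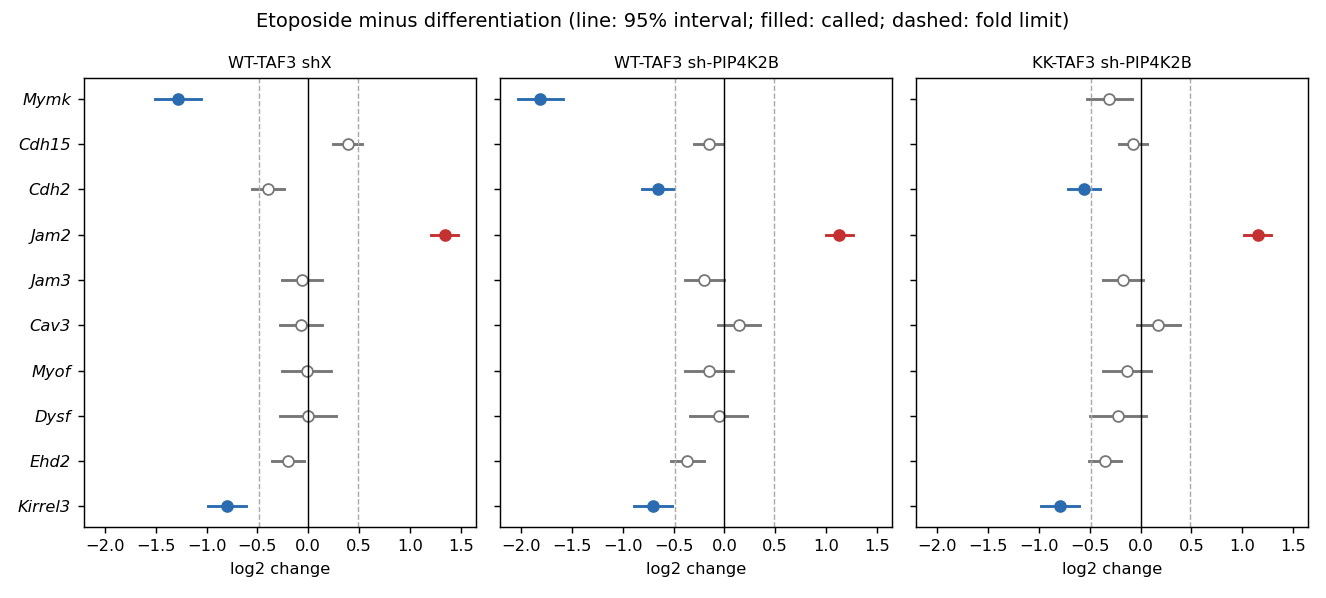
Log2 difference between etoposide-treated and differentiated cells for the 10 fusion genes in each of the 3 genotypes (horizontal axis, log2 units). Points are differences between means of 3 arrays with 95% confidence intervals. Jam2 lies at 1.13 to 1.34 in all genotypes, Kirrel3 at -0.80 to -0.70, and Mymk spreads from -1.81 to -0.31.

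Between the treatments 1 of the 10 genes was called higher in each genotype, Jam2, where 4.71%, 3.64% and 3.52% of all genes were called higher in WT-TAF3 shX, WT-TAF3 sh-PIP4K2B and KK-TAF3 sh-PIP4K2B cells. Called lower were 2 in WT-TAF3 shX (Mymk and Kirrel3, against 2.92% of all genes), 3 in WT-TAF3 sh-PIP4K2B (Mymk, Cdh2 and Kirrel3, against 6.3%) and 2 in KK-TAF3 sh-PIP4K2B cells (Cdh2 and Kirrel3, against 4.81%). Kirrel3 was lower by 1.74-fold (-0.80, adjusted p = 2.19e-06), 1.63-fold (-0.70, adjusted p = 8.23e-06) and 1.73-fold (-0.79, adjusted p = 2.51e-06) in the same genotypes. Cdh15 was higher by 0.39 in WT-TAF3 shX cells (adjusted p = 0.000287), short of the fold limit. Without the fold limit 5 of the 10 passed in each genotype, where 23.1%, 34.7% and 25.4% of all genes did. The etoposide arrays were all above the differentiated ones for 2, 1 and 1 genes, where 21.8%, 22.8% and 21.4% of all genes were, and all below for 4, 5 and 5 genes, where 22.4%, 19.9% and 19% were. The differences share no arrays between genotypes.

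None of the 4 membrane proteins was called in any comparison. Cav3, the caveolin of muscle, had group means from 6.62 to 6.96 and lay below the median of the 19938 genes on 18 of 18 arrays. Its largest difference was -0.34 between KK-TAF3 sh-PIP4K2B and WT-TAF3 shX cells in differentiation (SE 0.10, 1.27-fold, adjusted p = 0.0426), with every array lower but under the fold limit. Myof (myoferlin), a ferlin of myoblasts that binds membrane lipids in response to calcium, had group means from 12.08 to 12.34, and 63.1% of its variance lay within groups. Dysf (dysferlin), the ferlin of membrane repair in muscle fibres, was above the control on every differentiated array with PIP4K2B depletion, by 0.35 (SE 0.13, adjusted p = 0.101), and with KK-TAF3 sh-PIP4K2B cells against WT-TAF3 shX, by 0.40 (SE 0.13, adjusted p = 0.0662). Neither change passed, and the second reached 0.49 (adjusted p = 0.0371) and was called with arrays centred on their medians.

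Ehd2, an ATPase at the neck of caveolae, had means from 12.99 to 13.37. Its difference between etoposide and differentiation was -0.20 in WT-TAF3 shX (adjusted p = 0.0701), -0.36 in WT-TAF3 sh-PIP4K2B (adjusted p = 0.00121) and -0.35 in KK-TAF3 sh-PIP4K2B cells (adjusted p = 0.00195), all under 1.4-fold. Over the 18 arrays its signal correlated with that of Cdh2 at r = 0.96, and at 0.82 after the mean of each treatment was taken off. This is a description over arrays that share their cells, and among the etoposide arrays replicate 3 was the lowest of the 3 in every genotype for 6 of the 10 genes (Cdh15, Cdh2, Myof, Dysf, Ehd2 and Kirrel3), which was so for 0 of the 10 in the differentiated arrays. What set the third replicates apart was not tested.

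A list of 58 other measured genes with a part in myoblast fusion was read beside the 10 genes. Mymx (myomixer), the peptide partner of Mymk, had group means of 7.53 to 7.91 and was called in no comparison. Its change with KK-TAF3 in differentiation was -0.19 (adjusted p = 0.768). The differentiated arrays read from 7.34 (KK-TAF3 sh-PIP4K2B) to 7.87 (WT-TAF3 shX), all below the lowest array median over the genes, 7.89. At so low a signal, the lack of a call does not show that Mymx was unchanged. In differentiated cells 0 of the 58 were called with PIP4K2B depletion, nor did any pass 1.4-fold with an unadjusted p under 0.05 (0 of 58), where 0.682% of all genes were called higher and 0.376% lower. With KK-TAF3 2 rose and 0 fell, where 0.301% and 0.216% of all genes did: Itga4, the α4 integrin that binds Vcam1 on neighbouring cells, and Ptgfr, the prostaglandin F2α receptor of a pathway that recruits myoblasts to growing myotubes. The median change of the 58 was -0.01 with PIP4K2B depletion and 0.00 with KK-TAF3, beside -0.02 and 0.02 for all genes.

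Itga4 on differentiated arrays read 7.40, 7.50 and 7.51 in WT-TAF3 shX, 7.03, 7.08 and 7.00 in WT-TAF3 sh-PIP4K2B, and 7.91, 7.88 and 7.91 in KK-TAF3 sh-PIP4K2B cells. After etoposide it read 9.10, 8.89 and 8.78, then 8.04, 7.69 and 7.84, and 8.83, 8.82 and 8.65 in the same order of genotypes. The WT-TAF3 sh-PIP4K2B arrays were the lowest of the 3 genotypes in both treatments. With KK-TAF3 it rose by 0.86 in differentiation (SE 0.09, 1.82-fold, adjusted p = 1.46e-05) and by 0.91 after etoposide (SE 0.09, 1.88-fold, adjusted p = 1.60e-05). PIP4K2B depletion lowered it after etoposide by 2.10-fold (-1.07, adjusted p = 1.66e-06), and in differentiation the change was -0.43 (adjusted p = 0.0102), under the fold limit.

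Ptgfr on differentiated arrays read 7.15, 7.07 and 7.19 in WT-TAF3 shX, 6.93, 6.98 and 7.17 in WT-TAF3 sh-PIP4K2B, and 8.29, 8.25 and 7.95 in KK-TAF3 sh-PIP4K2B cells. The KK-TAF3 group stood above both others, 2.20-fold above WT-TAF3 sh-PIP4K2B (1.14, SE 0.09, adjusted p = 3.33e-07). Against WT-TAF3 shX it was 2.04-fold higher (1.03, adjusted p = 9.77e-07), while Elmo1, part of an activator of the small GTPase Rac, was 1.57-fold lower (-0.65, adjusted p = 8.35e-05). These were the 2 calls of the 58 in that comparison. After etoposide Ptgfr read 6.88 to 6.95 in WT-TAF3 shX, 6.74 to 6.88 in WT-TAF3 sh-PIP4K2B and 7.12 to 7.33 in KK-TAF3 sh-PIP4K2B cells. The KK-TAF3 arrays were again above both other groups, but Ptgfr was not called there.

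After etoposide, PIP4K2B depletion and KK-TAF3 each called Itga4 alone among the 58, where 0.321% and 0.341% of all genes were called higher and 0.547% and 0.0652% lower, and KK-TAF3 sh-PIP4K2B cells against WT-TAF3 shX called 0 of 58, as it did without adjustment of p. Between treatments in WT-TAF3 shX cells 2 of the 58 were higher after etoposide, Itga4 (2.73-fold) and Cavin4 (2.64-fold), a muscle protein of caveolae. Lower were 5: Vcam1 (-1.11), Elmo1 (-0.82), the metalloprotease Adam12 (-0.69), the interleukin-4 receptor chain Il4ra (-0.55) and Kirrel (-0.53), a relative of Kirrel3. Of all genes 4.71% were higher and 2.92% lower. Kirrel was -0.40 and short of the limit without WT-TAF3 shX etoposide replicate 3. In each of the sh-PIP4K2B genotypes 2 were higher and 8 lower. Of all genes 3.64% and 6.3% were in WT-TAF3 sh-PIP4K2B cells, and 3.52% and 4.81% in KK-TAF3 sh-PIP4K2B cells. With the array median as a covariate Adam12, Dock1, Ehd4, Itga3, Kirrel and Sh3pxd2a lost the lower call in WT-TAF3 sh-PIP4K2B cells. Dock1, Itga3 and Sh3pxd2a lost it in KK-TAF3 sh-PIP4K2B cells. Without etoposide replicate 3 of the genotype, Adam12, Dock1, Itga3 and Sh3pxd2a lost it in WT-TAF3 sh-PIP4K2B, and Dock1 and Itga3 in KK-TAF3 sh-PIP4K2B cells.

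**Figure D4:**
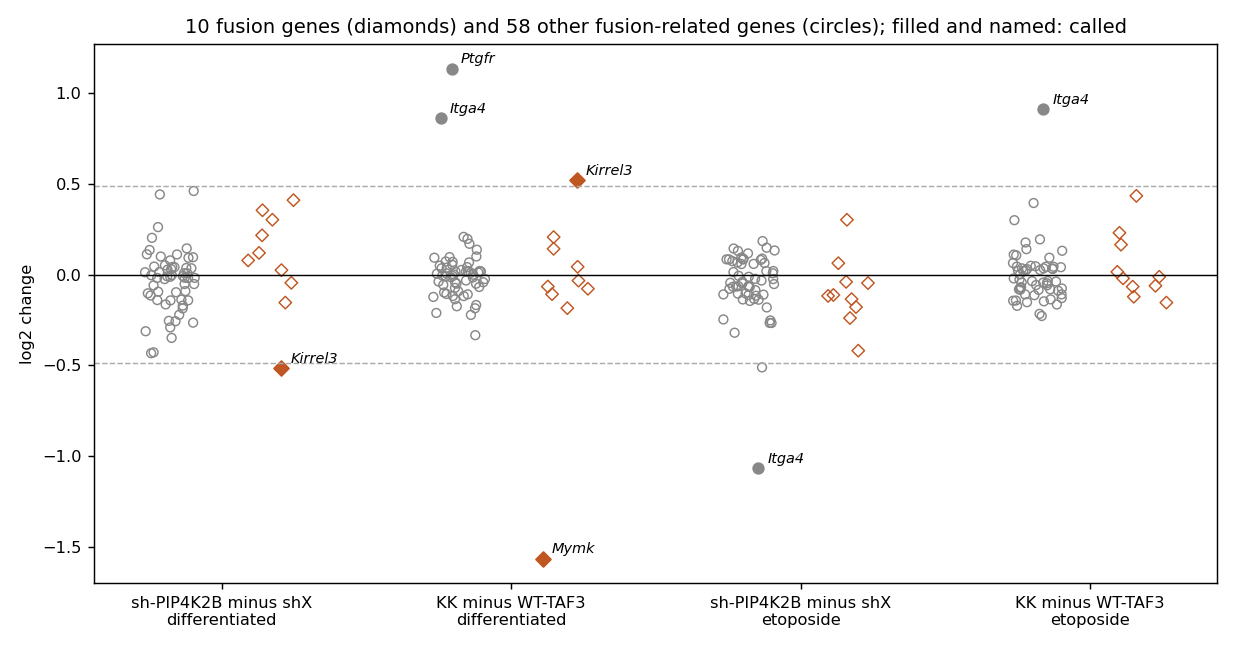
Log2 change (vertical axis) of the 58 other fusion genes (circles) and the 10 fusion genes (diamonds) in the 4 comparisons of genotypes within a treatment, each point 1 gene. Filled and named points were called and dashed lines mark the 1.4-fold limit; with KK-TAF3 in differentiated cells Ptgfr lies at 1.14, Itga4 at 0.86 and Mymk at -1.57.

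Among 631 genes whose 6 group means span at least 1 log2 unit, the genes whose signal followed that of Mymk most closely over the 18 arrays were Myog (r = 0.97), Myh3 (0.95), Ncam2 (0.94), Tnnc1 (0.94) and Pcx (0.92). After the mean of each treatment was taken off they were Myog (0.95), Ncam2 (0.91), Myh3 (0.91), Pcx (0.89) and Acta1 (0.88). Myog encodes myogenin, the bHLH factor of early differentiation, Myh3 the embryonic myosin heavy chain, Tnnc1 the slow and cardiac troponin C, Acta1 skeletal α-actin, Ncam2 a neural cell adhesion molecule and Pcx pyruvate carboxylase. The arrays share their cells, treatments and genotypes, so the correlations describe the pattern only. The genes were picked for following Mymk over the arrays compared below, so their changes, given next, come with the choice and support nothing.

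With KK-TAF3 in differentiated cells the log2 changes were -1.19 for Ncam2, -1.18 for Acta1, -1.11 for Tnnc1, -1.02 for Myog, -0.93 for Myh3 and -0.69 for Pcx. With PIP4K2B depletion they were 0.62 for Tnnc1, 0.47 for Acta1, 0.40 for Myh3, 0.34 for Pcx, 0.25 for Myog and 0.00 for Ncam2. Myog averaged 7.70 ± 0.05 (SD, n = 3) in differentiated WT-TAF3 shX, 7.95 ± 0.13 in WT-TAF3 sh-PIP4K2B and 6.93 ± 0.10 in KK-TAF3 sh-PIP4K2B cells, and 6.77 to 6.93 after etoposide.

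**Figure D5:**
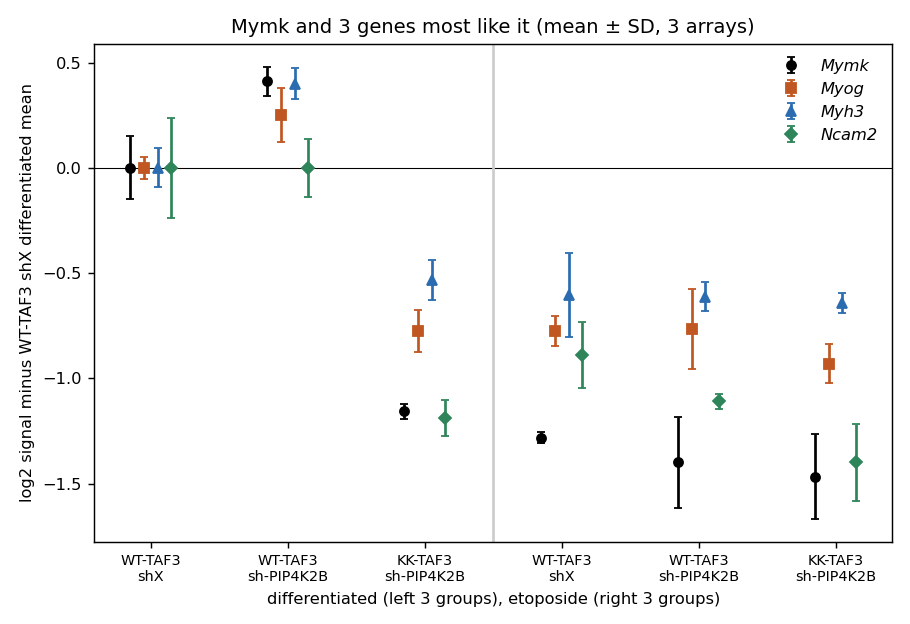
Log2 signal of Mymk, Myog, Myh3 and Ncam2 in the 6 groups, each relative to the gene's own mean in differentiated WT-TAF3 shX cells (vertical axis, log2 units). Points are means of 3 arrays and bars 1 SD. In differentiated KK-TAF3 sh-PIP4K2B cells Mymk lies at -1.16, near its values after etoposide, and the other genes are below their control as well.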

How the data were processed

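RNA of C2C12 cells was hybridised to Affymetrix mouse gene arrays, 3 in each of 6 groups. The deposited table holds log2 signals, which the authors computed by RMA in Affymetrix Expression Console (versions and genome build not given in the sources used here), which corrects background, normalizes arrays by quantiles and summarises probes, and thereby compresses low signals and makes differences relative to the bulk of the genes. The values were used as deposited, with no filter or further scaling. Of 35556 transcript clusters 21789 had 1 gene symbol in the platform annotation, 1621 had several and 12146 were not listed there. The study names a later chip generation than that annotation covers, so gene names rest on the annotation. For 999 genes with more than 1 cluster the brightest was kept, which gave 19938 genes.

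The 10 genes and all lists were chosen with earlier results of these data known. All arrays entered 1 model of the 6 group means in limma 3.58.1 (R 4.3.3), with 12 residual and 6.05 prior degrees of freedom, and calls needed a Benjamini-Hochberg adjusted p under 0.05 and a change above 1.4-fold. With 3 arrays in a group the number of arrays limits the precision. Values on every array were given for those of the 10 genes called in a comparison of genotypes or of treatments, and for Itga4. For Ptgfr they were given on the differentiated arrays, with ranges after etoposide. Also named were the other fusion genes called between genotypes, the largest etoposide changes among them, and those whose etoposide call was lost under other settings. The 5 genes most like Mymk by each of 2 measures were named as well. Same-numbered arrays of 2 groups had deviations from their group means that correlated at -0.42 to 0.59, with 9 of 27 pairs over 0.1. Every pair exceeded 0.1 for PIP4K2B depletion and for KK-TAF3 sh-PIP4K2B cells against WT-TAF3 shX cells, both after etoposide. A fit of the etoposide arrays with the replicate block was added for these after seeing the data. Between KK-TAF3 and WT-TAF3 sh-PIP4K2B cells after etoposide the values were -0.29, -0.19 and 0.48, and the array labels state no pairing. Whether the numbers pair the samples is therefore not known. Alternatives covered the test, genes tested, scaling, fold limit, pairing and each array left out. Promoter windows came from RefSeq tables (GRCm38.p6) and were read with Python 3.11.15 and pandas 2.3.3. Figures used matplotlib 3.10.9.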

Additional observations from a re-analysis of the deposited data

Results flagged for a closer look

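Several genotype effects differed between differentiated and etoposide-treated cells in the test of the difference itself. For PIP4K2B depletion the effect after etoposide minus that in differentiation was -0.53 for Mymk, -0.54 for Cdh15, -0.63 for Itga4 (adjusted p = 0.0120) and -0.60 for Cavin4 (adjusted p = 0.0120). With the array median as a covariate the Itga4 and Cavin4 differences were -0.37 and -0.48 and were not called. For KK-TAF3 the difference was 1.50 for Mymk and -0.74 for Ptgfr (adjusted p = 0.0152). The Ptgfr call was lost with every transcript cluster tested (adjusted p = 0.0633) and without WT-TAF3 sh-PIP4K2B differentiated replicate 1 or 2 or KK-TAF3 sh-PIP4K2B differentiated replicate 1 or 2, where the difference ranged from -0.72 to -0.68.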

How the results depend on the processing

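The lower Mymk and the higher Kirrel3 with KK-TAF3 in differentiated cells were called under every alternative run, with Mymk between -1.59 and -1.53 when 1 array was left out. Of the counts of called genes among the 10, 107 of 118 under other settings and 66 of 78 with 1 array left out stayed within 1.5 times the value given, and of the single-gene changes 908 of 946 and 574 of 612 kept direction and side of the threshold. In the cases below the cause was not tested beyond what each setting changes.

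Without the fold limit 3 of the 10 genes passed with PIP4K2B depletion in differentiated cells, 1 after etoposide, 1 with KK-TAF3 after etoposide, 4 for KK-TAF3 sh-PIP4K2B cells against WT-TAF3 shX in differentiation, and 5 between treatments in WT-TAF3 shX and 5 in KK-TAF3 sh-PIP4K2B cells. With arrays centred on their median, 2 passed for KK-TAF3 sh-PIP4K2B cells against WT-TAF3 shX in differentiation (Mymk and Dysf), Mymk was called with PIP4K2B depletion (0.51, adjusted p = 0.00657) and Kirrel3 was not. For the difference of the PIP4K2B depletion effect between treatments 1 of the 10 genes passed with every transcript cluster tested, 0 with quantile normalization within each treatment and 0 with the array median as a covariate. Changes near 0 turned sign: Cdh15 with KK-TAF3 after etoposide was -0.014 with quantile normalization, Kirrel3 between KK-TAF3 sh-PIP4K2B and WT-TAF3 shX in differentiation was -0.087 with quantile normalization and -0.051 with the covariate, and the Kirrel3 difference of the depletion effect between treatments was -0.046 with median centring.

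With 1 array left out, 1 to 2 of the 10 genes were called with PIP4K2B depletion in differentiation, 0 to 1 after etoposide, 0 to 1 with KK-TAF3 after etoposide and 1 to 2 for the difference of the depletion effect between treatments. In the same fits the KK-TAF3 change after etoposide ran from -0.020 to 0.075 for Cdh15 and from -0.18 to 0.046 for Mymk. Kirrel3 between KK-TAF3 sh-PIP4K2B and WT-TAF3 shX ran from -0.014 to 0.015 in differentiation and from -0.066 to 0.12 after etoposide, and its KK-TAF3 difference between treatments from -0.15 to 0.012.

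Pairing by number was not established for any comparison. With the replicate block in all arrays 1 of the 10 genes (Cdh15) was called for the difference of the depletion effect. Over all genes 258 were higher and 396 lower there, in place of 388 and 413. With the block in the etoposide arrays alone, 0 of the 10 genes were called in either comparison fitted with it, as without it. No other call named here changed with either block.

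Scaling moved the split over all genes. Higher and lower calls with PIP4K2B depletion in differentiation numbered 136 and 75, but 318 and 31 with median centring and 58 and 86 with the covariate. After etoposide they numbered 64 and 109, against 38 and 149, and 96 and 81. For KK-TAF3 sh-PIP4K2B cells against WT-TAF3 shX in differentiation they were 164 and 87, against 383 and 50, and 88 and 81, and for KK-TAF3 after etoposide 68 and 13, against 52 and 19 with the covariate. Between treatments they were 726 and 1257, against 402 and 1939, and 746 and 705 in WT-TAF3 sh-PIP4K2B cells, and 702 and 959, against 509 and 1204, and 727 and 663 in KK-TAF3 sh-PIP4K2B cells. For the difference of the depletion effect median centring gave 66 and 1290 and the covariate 39 and 57 in place of 388 and 413. Median centring moved the median of all genes by 0.11 between treatments in WT-TAF3 sh-PIP4K2B cells.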
